A study of Mus musculus with 31 samples.

Results

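Ovaries of Wv/Wv mouse embryos were compared with wild-type ovaries at 12 days post coitum (dpc), the earliest of the 3 ages sampled, in 4 of the 31 arrays of the study. The members are the 2 arrays labelled mutant ovary and the 2 labelled wild-type ovary at that age, all from female embryos and all numbered in the labels as biological replicates. The study measured total RNA of fetal ovaries and testes at 12, 14 and 16 dpc in both genotypes on Affymetrix 3′ expression arrays, with 1 to 3 arrays in each of 12 groups. Wv is a point mutation of Kit that lowers the kinase activity of the receptor, and the mutant embryos carried it on both alleles in every cell. The labels do not say how many embryos or gonads gave each RNA. The p-values below measure a spread between arrays, estimated within groups over all 31 arrays and not from these 4 alone.

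Primordial germ cells reach the gonad from outside it. They migrate through the hindgut and its mesentery, and need KIT on their surface and KIT ligand from the surrounding somatic cells to survive, divide and move. Germ cells that have just settled in the ovary still express pluripotency factors such as OCT4 and NANOG, switch on gonadal germ cell genes such as Dazl and Ddx4, and enter meiosis some days later under the control of retinoic acid and STRA8.

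Promoters are printed for 4 of the genes that fell, 2 gonadal germ cell genes and 2 pluripotency genes. Each window runs from 250 bases before to 50 bases after a transcription start and comes from RefSeq on GRCm38.p6: Dazl at chr17:50293571-50293870 on the minus strand, Ddx4 at chr13:112652261-112652560 on the minus strand, Pou5f1 at chr17:35505782-35506081 on the plus strand and Nanog at chr6:122707239-122707538 on the plus strand. Sequences are written 5′ to 3′ on the gene's strand, with every CpG, the dinucleotide that DNA methylation acts on, in capitals.
Dazl: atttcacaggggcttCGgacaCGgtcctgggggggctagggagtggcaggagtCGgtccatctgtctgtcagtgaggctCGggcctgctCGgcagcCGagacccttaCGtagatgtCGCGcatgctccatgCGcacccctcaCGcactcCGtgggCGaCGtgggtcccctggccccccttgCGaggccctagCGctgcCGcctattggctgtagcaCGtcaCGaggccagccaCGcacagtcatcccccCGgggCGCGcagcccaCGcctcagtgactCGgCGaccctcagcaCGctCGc
Ddx4: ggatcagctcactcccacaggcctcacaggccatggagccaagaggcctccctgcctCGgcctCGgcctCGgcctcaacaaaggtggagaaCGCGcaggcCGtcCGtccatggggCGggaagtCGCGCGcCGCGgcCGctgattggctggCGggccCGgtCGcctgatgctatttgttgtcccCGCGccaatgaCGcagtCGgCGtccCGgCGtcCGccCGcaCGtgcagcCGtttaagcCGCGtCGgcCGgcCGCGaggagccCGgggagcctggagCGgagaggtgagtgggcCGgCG
Pou5f1: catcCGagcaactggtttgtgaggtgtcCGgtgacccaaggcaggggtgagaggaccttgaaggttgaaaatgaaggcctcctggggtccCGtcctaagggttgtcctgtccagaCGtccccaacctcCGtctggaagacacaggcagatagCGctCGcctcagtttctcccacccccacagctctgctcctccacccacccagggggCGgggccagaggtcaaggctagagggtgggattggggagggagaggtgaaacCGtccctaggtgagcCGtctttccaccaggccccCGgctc
Nanog: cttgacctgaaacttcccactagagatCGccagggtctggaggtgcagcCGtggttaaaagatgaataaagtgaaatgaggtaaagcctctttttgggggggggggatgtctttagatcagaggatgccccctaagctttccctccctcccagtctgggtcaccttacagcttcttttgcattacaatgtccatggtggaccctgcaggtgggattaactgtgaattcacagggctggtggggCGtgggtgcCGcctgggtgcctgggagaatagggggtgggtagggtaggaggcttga
The Ddx4 window holds 38 CpG and the Dazl window 28, against 11 for this Pou5f1 window and 4 for Nanog, where the median of all 32851 promoter windows in the table is 7. Both gonadal germ cell genes thus have many CpG in the window, and the Nanog window has fewer than the median. Each of these 2 pluripotency genes has a second window, with 6 CpG for Pou5f1 and 4 for Nanog. Among the other germ cell and pluripotency genes that fell and have a window, Rpl39l had 17 CpG, L1td1 14, and Tcl1 and Zfp42 11 each. The 4 printed genes include the highest and the lowest counts, so they do not stand for all genes of their kind.

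The 4 arrays carried the marks of fetal ovary. Xist, the RNA of the inactive X chromosome, lay between 12.49 and 12.56 on the log2 scale of the arrays on all 4, and 3 Y-linked genes lay between 2.94 and 4.36, where Eif2s3y was at 6.74 to 10.65 on the 15 testis arrays. Wnt4, a signal of the ovarian programme, was at 11.10 and 11.60 in wild-type and at 11.42 and 11.46 in Wv/Wv ovaries. Foxl2, the transcription factor of pregranulosa cells, was at 7.27 and 8.36 in wild-type and at 7.50 and 8.09 in Wv/Wv ovaries. All 4 arrays were among the 21 whose log2 values have the wider spread over probe sets, with standard deviations of 2.33 to 2.37. Their Gapdh 3′ probe set exceeded the 5′ one by 1.79 to 2.12 log2 units. Over the series this excess was 1.75 to 2.56 on the 21 arrays and 0.508 to 1.125 on the 10 of narrower spread. The arrays of wider and narrower spread thus also differ in 3′ bias. Kit itself, whose transcript the point mutation need not remove, was at 9.10 and 9.24 in wild-type and at 8.62 and 8.14 in Wv/Wv ovaries, a difference of −0.79 ± 0.66 (SE) that did not pass the test. This checks the level of the transcript and not the mutation.

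In Wv/Wv ovaries at 12 dpc 17 genes fell and none rose, out of 18194 tested. The genes that fell were led by Dazl, Ddx4, Dppa5a, Rhox6 and Rpl39l, with falls of 3.84 to 4.91 on the log2 scale, and included the pluripotency factors Pou5f1, Nanog, Prdm14 and Zfp42. All 17 had both wild-type arrays above both mutant arrays, as did 17.5% of all genes. The gaps ran from 1.45 for Liph to 4.49 for Dazl. The 17 were chosen by a test on these same arrays, which favours such gaps, so they are no further support. Of the 17, 13 stand on the lists of germ cell and pluripotency genes. limma's moderated test was fitted over all 31 arrays, and a gene passed where its adjusted p (Benjamini-Hochberg over all genes) was below 0.05, which called 0.0934% of genes lower and 0% higher. Without the adjustment, 106 genes were lower and 33 higher at p below 0.05 (0.583% and 0.181%). RNA of a whole ovary cannot tell fewer germ cells from less RNA in each germ cell.

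**Figure D1:**
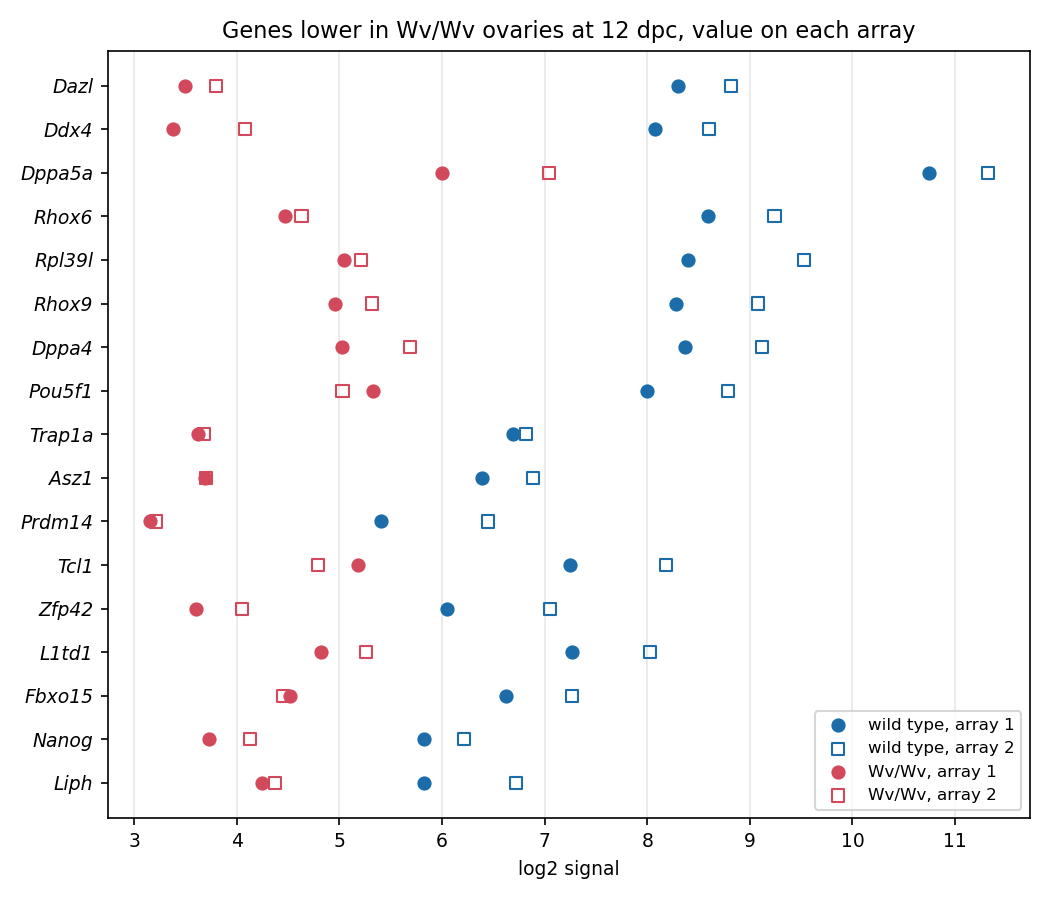
Log2 signal (horizontal axis) of the 17 genes called lower in Wv/Wv ovaries at 12 dpc, ordered by the size of the change, with 1 point per array, blue for wild type (n = 2) and red for Wv/Wv (n = 2), filled for replicate 1 and open for replicate 2. For each of the 17 genes both red points lie to the left of both blue points, and the open blue square of wild-type array 2 lies to the right of the filled blue circle.

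The gonadal germ cell genes changed most. Dazl, an RNA-binding protein that germ cells need to become competent for gametogenesis, was at 8.30 and 8.82 in wild-type and at 3.49 and 3.80 in Wv/Wv ovaries (−4.91 ± 0.74, adjusted p = 0.00338). Ddx4, which encodes the RNA helicase Vasa, was at 8.08 and 8.60 in wild-type and at 3.38 and 4.08 in mutant ovaries (−4.60 ± 0.85, adjusted p = 0.0239). Both mutant arrays lay far below both wild-type arrays for each gene. A second Dazl probe set gave 7.79 and 8.12 in wild-type and 4.26 and 4.08 in Wv/Wv ovaries, a change of −3.78 ± 0.42 (adjusted p = 0.000312 in limma over all probe sets).

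Rhox6 and Rhox9, homeobox genes of the X-linked reproductive cluster, fell together. Rhox6 was at 8.59 and 9.24 in wild-type and at 4.47 and 4.63 in Wv/Wv ovaries (−4.37 ± 0.62, adjusted p = 0.00246). Rhox9 was at 8.28 and 9.08 in wild-type and at 4.96 and 5.32 in Wv/Wv ovaries (−3.54 ± 0.53, adjusted p = 0.00338). Rpl39l, a germ cell copy of the ribosomal protein gene Rpl39, was at 8.40 and 9.53 against 5.04 and 5.21 (−3.84 ± 0.54, adjusted p = 0.00246). These were the other members of the germ cell identity list that passed the test, which makes 5 of the 13 measured, and 10 of the 13 were lower at an unadjusted p below 0.05. The median change of the list was −2.88, where the median over all genes tested was within 0.01 of 0. The members that did not pass included Stk31, a germ cell kinase-like gene (−2.95 ± 0.66, adjusted p = 0.115), and the mitochondrial nucleotide carrier gene Slc25a31 (−2.88 ± 0.60, adjusted p = 0.0639).

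Pluripotency genes formed the larger group by number but not by share, with 8 of 26 measured called against 5 of 13 on the germ cell identity list. Dppa5a, an RNA-binding protein of pluripotent cells, was at 10.75 and 11.32 in wild-type and at 6.00 and 7.04 in Wv/Wv ovaries (−4.52 ± 0.79, adjusted p = 0.0152). Pou5f1, which encodes OCT4, was at 8.00 and 8.79 against 5.33 and 5.03 (−3.21 ± 0.62, adjusted p = 0.0359). Nanog was at 5.82 and 6.21 against 3.73 and 4.13 (−2.09 ± 0.28, adjusted p = 0.00237). The change of Nanog was smaller than that of Pou5f1 but had the lower adjusted p, and in both genes the genotypes were separated by more than the distance between replicates. Prdm14, a transcriptional regulator needed to specify primordial germ cells, was at 5.40 and 6.45 in wild-type and at 3.15 and 3.21 in Wv/Wv ovaries (−2.75 ± 0.51, adjusted p = 0.0240). Dppa4, a chromatin-associated protein of pluripotent cells, was at 8.37 and 9.12 against 5.02 and 5.69 (−3.39 ± 0.64, adjusted p = 0.0258). In these genes too the arrays of the genotypes stood apart. Zfp42, the zinc finger protein REX1, was at 6.05 and 7.05 in wild-type and at 3.60 and 4.05 in Wv/Wv ovaries (−2.73 ± 0.44, adjusted p = 0.00757). Tcl1, a co-activator of the kinase AKT, was at 7.25 and 8.18 against 5.18 and 4.79 (−2.73 ± 0.44, adjusted p = 0.00757). L1td1, an RNA-binding protein derived from a LINE-1 retrotransposon, was at 7.27 and 8.03 against 4.82 and 5.26 (−2.61 ± 0.45, adjusted p = 0.0129).

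Of the 26 measured genes on the pluripotency and primordial germ cell list 8 passed the test, 16 were lower at an unadjusted p below 0.05, and the median change was −2.17. In 22 of the 26 both mutant arrays lay below both wild-type arrays, a pattern found in 17.5% of all genes, and in 2 of the 26 both lay above, as in 13.8% of all genes. Genes on this list with large differences that missed the threshold were Sox2, the partner of OCT4 in pluripotent cells, at 7.76 and 8.71 in wild-type and 3.36 and 4.46 in Wv/Wv ovaries (−4.32 ± 0.90, adjusted p = 0.0639), and Tfap2c, a specification factor of primordial germ cells, at 7.97 and 9.26 against 4.67 and 5.13 (−3.72 ± 0.76, adjusted p = 0.0579). Their replicates were further apart than those of Nanog. The standard errors, however, were estimated within groups over all arrays of the fit and not from these replicates alone. Dppa3, also called Stella, was at 8.20 and 8.58 against 5.26 and 5.45 (−3.04 ± 0.68, adjusted p = 0.113). It missed the threshold too, with replicates no further apart than those of Nanog. On the same list Prdm1, which encodes BLIMP1 and represses somatic genes in primordial germ cells, differed by −0.67 ± 0.44, and Ifitm3, a membrane protein of primordial germ cells and of other cells, by −0.66 ± 0.36. Tfcp2l1, a transcription factor of naive pluripotent cells, was higher in both mutant arrays (8.35 and 7.03 against 8.45 and 8.47), a difference of 0.77 ± 0.50 that did not pass.

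**Figure D2:**
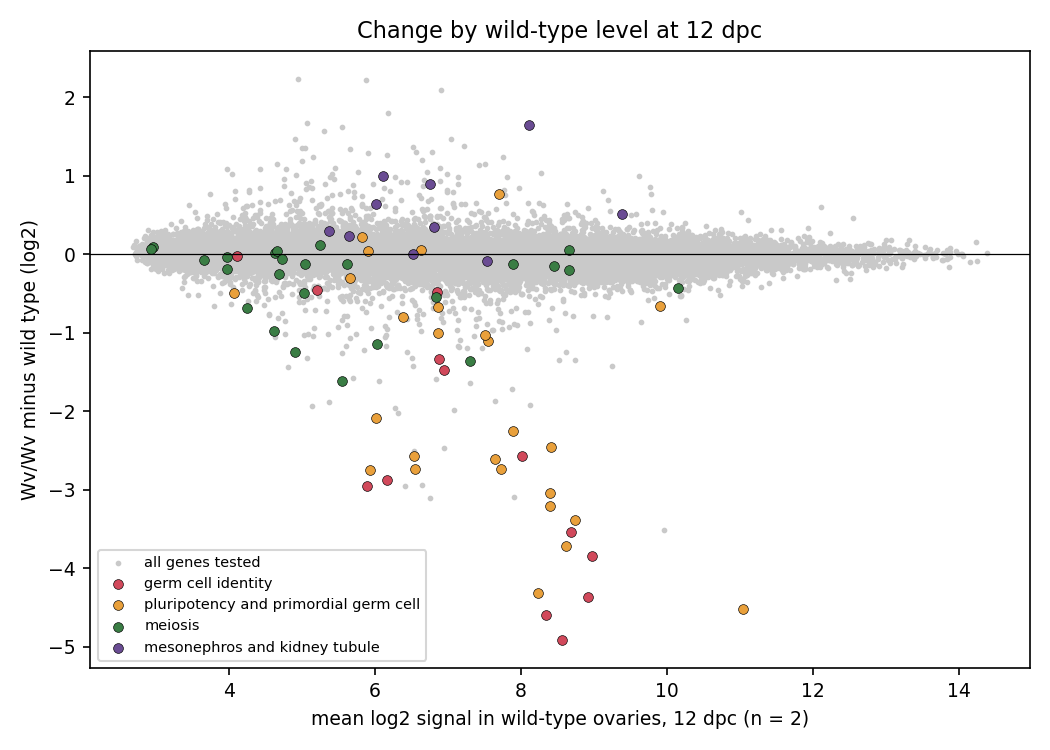
Wv/Wv minus wild type (vertical axis, log2) against the mean log2 signal of the 2 wild-type ovaries at 12 dpc (horizontal axis) for all 18194 genes in grey, with germ cell identity genes in red, pluripotency genes in orange, meiosis genes in green and mesonephros and kidney tubule genes in purple. Most changes below −3 belong to red and orange points with wild-type values above 8, while no gene reached a rise of 3, the highest value being 2.23.

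The other 4 genes that fell belong to neither list. Asz1, a germ cell protein of the piRNA machinery at the mitochondrial surface, was at 6.39 and 6.89 in wild-type and at 3.69 and 3.70 in Wv/Wv ovaries (−2.94 ± 0.49, adjusted p = 0.00841). Trap1a, an X-linked gene first known as a tumour antigen, was at 6.69 and 6.82 against 3.62 and 3.68 (−3.11 ± 0.57, adjusted p = 0.0211). Fbxo15, an F-box gene used as a marker of embryonic stem cells, was at 6.62 and 7.27 against 4.52 and 4.45 (−2.46 ± 0.45, adjusted p = 0.0211). Each of these genes had mutant arrays less than 0.1 apart. Liph, a membrane-bound phospholipase, was at 5.82 and 6.72 against 4.24 and 4.37 (−1.96 ± 0.39, adjusted p = 0.0494). A second probe set of Liph changed by −0.21 and one of Asz1 by −0.30, neither of them called, so these 2 falls rest on 1 of the gene's probe sets. Rhox6, Rhox9 and Trap1a are on the X chromosome, which makes 17.6% of the genes that fell against 3.42% of the genes tested with a known chromosome.

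On both mutant arrays 15 of the 17 genes were below 5.387, the 40th percentile of all deposited values, and the exceptions were Dppa5a and Dppa4. All 17 were above it on both wild-type arrays. Measured against this limit in place of the mutant values, the wild-type mean was at least 12.0-fold higher for Rpl39l, at least 9.0-fold for Dazl and at least 1.45-fold for Prdm14, the smallest of the 15. Wild-type array 2 gave a higher value than wild-type array 1 for all 17 genes, with a median difference of 0.75, where 45.7% of all genes were higher on array 2. Mutant array 2 was higher than mutant array 1 for 14 of the 17, with a median difference of 0.16 over the 17, where 51.1% of all genes were higher on array 2. Leaving out wild-type array 2 left 0 genes called in limma (78 lower and 13 higher at an unadjusted p below 0.05), and leaving out mutant array 1 also left 0 (101 lower and 49 higher). Without mutant array 2 the test called 1 gene, Nanog, and without wild-type array 1 it called 20, of which 12 were among the 17 and 4, Keg1, Pou3f3, Scin and Slc12a1, were higher in the mutant. The 17 changes stayed below 0 in each of these fits. This had to follow, because both wild-type arrays lay above both mutant arrays for each of the 17. Leaving out wild-type testis array 1 of 16 dpc, the array of lowest spread, gave 27 genes in place of 17.

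A fit to the 21 arrays of the wider spread, which include all 4 compared here, called 48 genes lower (0.264%) and 0 higher (313 higher at an unadjusted p below 0.05), and kept all 17. In that fit 9 of the 13 germ cell identity genes and 14 of the 26 pluripotency genes were called. Sox2 then had an adjusted p of 0.000555, Tfap2c of 0.00818 and Dppa3 of 0.000218 with the same differences and smaller standard errors. Genes outside these lists that it added included Rhox5, the founding member of the Rhox cluster (9.65 and 10.27 against 6.33 and 6.57, −3.51, adjusted p = 0.000123), and Tex19.1, a germ cell gene that restrains retrotransposons (7.55 and 8.25 against 4.74 and 4.88, −3.09, adjusted p = 0.000594). Among the list members it added were Lin28a, an RNA-binding protein that blocks let-7 maturation (7.57 and 8.22 against 5.84 and 5.44, −2.25, adjusted p = 0.0169), Dnd1, an RNA-binding protein required for germ cell survival (6.71 and 7.18 against 5.42 and 5.54, −1.47, adjusted p = 0.00503), and Mybl2, a cell cycle transcription factor (7.28 and 7.83 against 6.44 and 6.43, −1.11, adjusted p = 0.00449). Dppa2, the partner of Dppa4, was at 6.08 and 6.99 against 3.81 and 4.11 (−2.57, adjusted p = 0.000618). Tbx4, a T-box gene on neither list, was at 5.83 and 7.23 against 4.04 and 4.01 (−2.51, adjusted p = 0.00110). The largest of these differences were those of Sox2, Tfap2c and Rhox5, and both mutant arrays were the lower ones for each gene named. Rhox5, Tex19.1 and Tbx4 were chosen after their values were seen.

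The genes of the piRNA pathway, which silences transposons in germ cells, were lower in part. Asz1 was the 1 gene called of 16 measured, 7 were lower at an unadjusted p below 0.05, and the median change of the list was −0.38. Morc1, a germ cell ATPase, was at 5.85 and 6.96 in wild-type and at 3.13 and 3.79 in Wv/Wv ovaries (−2.95 ± 0.75, adjusted p = 0.383). Piwil2, the PIWI protein MILI, was at 5.89 and 6.74 against 4.13 and 4.44 (−2.02 ± 0.49, adjusted p = 0.257). The mutant arrays were the lower ones for both, and the fit to the wide-spread arrays called them with adjusted p of 0.0187 and 0.0401. Mael, a germ cell nuage protein, was at 5.11 and 5.63 against 3.55 and 3.42 (−1.88 ± 0.57), and Dnmt3l, the cofactor of de novo DNA methylation, differed by −0.13 ± 0.31.

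The meiosis list had medians below 5.387 on all 4 arrays, at 5.01 and 5.07 in wild-type and at 4.52 and 4.77 in Wv/Wv ovaries. None of 25 measured genes was called, 5 were lower at an unadjusted p below 0.05, and the median change was −0.15. Stra8, the gatekeeper of meiotic entry, was at 5.24 on both wild-type arrays and at 5.35 and 5.36 in Wv/Wv ovaries (0.12 ± 0.63), all below the 40th percentile of the deposited values. Sycp3, a protein of the synaptonemal complex, was at 4.62 and 5.18 against 3.52 and 3.78 (−1.25 ± 0.56). Syce1, another component of that complex, was at 5.36 and 5.73 against 4.05 and 3.82 (−1.61 ± 0.42, adjusted p = 0.427). The cohesin subunit genes Smc1b and Stag3 differed by −1.15 ± 0.36 and −1.36 ± 0.53. In 13 of the 25 both mutant arrays were below both wild-type arrays, against 17.5% of all genes. In 2 of the 25, Stra8 among them, both were above, against 13.8% of all genes. Of 16 oocyte genes none was called and the median change was −0.01. The largest differences were those of Sohlh2, a transcription factor of early oocyte differentiation, at 6.95 and 7.57 against 6.10 and 6.03 (−1.19 ± 0.42, adjusted p = 0.00503 in the fit to the wide-spread arrays, where it was the 1 oocyte gene called), and Taf4b, a germ cell subunit of the general transcription factor TFIID, at 7.00 and 7.31 against 5.84 and 6.29 (−1.09 ± 0.36). Nobox, an oocyte homeobox gene of later stages, differed by 0.20 ± 0.37.

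**Figure D3:**
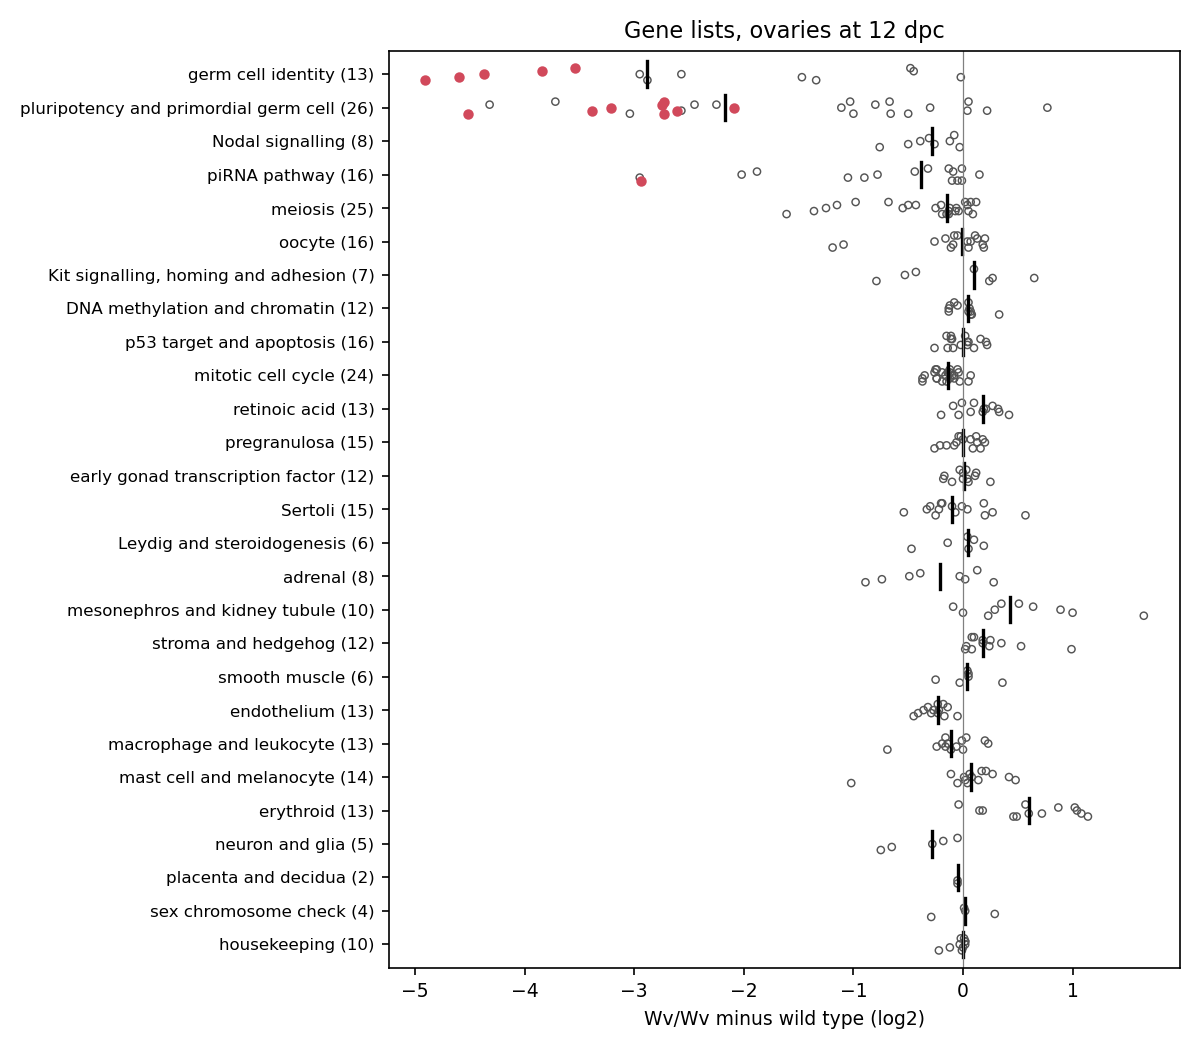
Wv/Wv minus wild type (horizontal axis, log2) at 12 dpc for each measured member of 27 gene lists, with the number measured in brackets, red for genes called and open circles for the others, and a black bar at the median of each list. The red points lie on the germ cell identity, pluripotency and piRNA lists, whose medians are −2.88, −2.17 and −0.38.

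The signals that act on germ cells came out as follows. Kitl, the ligand of KIT, was at 11.66 and 12.48 in wild-type and at 11.86 and 12.48 in Wv/Wv ovaries (0.10 ± 0.38), so the genotypes overlapped. Cxcl12, the chemokine that draws migrating germ cells, was at 10.58 and 9.81 against 9.71 and 9.62 (−0.53 ± 0.36), and its receptor Cxcr4 at 5.79 and 6.08 against 5.56 and 5.45 (−0.43 ± 0.34). Cdh1, which encodes E-cadherin, overlapped between genotypes (0.65 ± 1.12). None of the 7 genes of the Kit signalling, homing and adhesion list was called, and their median change was 0.10. None of 8 Nodal signalling genes was called (median −0.28), and Lefty2, an inhibitor of Nodal, had the largest difference, −0.76 ± 0.45. Retinoic acid genes had a median of 0.18 with none of 13 called, and Crabp2, a retinoic acid binding protein, differed by 0.42 ± 0.46.

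Genes of the ovarian somatic cells did not pass the test in either direction. All 15 pregranulosa genes overlapped between the genotypes, with a median change of 0.00 and a range from −0.26 to 0.20. Fst, which encodes follistatin and is a target of WNT4 signalling, was at 10.06 and 11.29 in wild-type and at 10.49 and 11.27 in Wv/Wv ovaries (0.20 ± 0.44). Runx1, a transcription factor of pregranulosa cells, was at 7.09 and 8.68 against 7.72 and 8.42 (0.18 ± 0.45). In both genes array 2 exceeded array 1 in each genotype by more than the genotypes differed. Nr5a1, the master regulator of steroidogenic tissue, was at 8.68 and 9.98 against 8.90 and 9.81 (0.03 ± 0.43), and Wt1, a factor of the early gonad, at 11.21 and 11.45 against 11.24 and 11.21 (−0.10 ± 0.34). The 12 early gonad transcription factors had a median change of 0.01. Of the genes that mark testis, 15 Sertoli genes had a median of −0.10 and 6 Leydig and steroidogenesis genes one of 0.05, with none called. Sox9, the Sertoli factor, was at 5.71 and 5.47 in wild-type and at 6.23 and 6.08 in Wv/Wv ovaries (0.57 ± 0.61). The 10 housekeeping genes ranged from −0.22 to 0.02.

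Genes of cell division and death showed small differences. None of 24 mitotic cell cycle genes was called, with a median of −0.14 and a range from −0.37 to 0.07, and in 15 of the 24 both mutant arrays were below both wild-type arrays, against 17.5% of all genes. Bub1, a spindle checkpoint kinase, was at 10.43 and 10.46 in wild-type and at 10.00 and 10.15 in Wv/Wv ovaries (−0.37 ± 0.58). None of 16 p53 target and apoptosis genes was called. Their range was −0.26 to 0.22, and Cdkn1a, the cell cycle inhibitor p21, had the highest value, with arrays at 9.15 and 9.06 against 9.48 and 9.18. The 12 genes of DNA methylation and chromatin had a median of 0.05, and Dnmt1, the maintenance methyltransferase, differed by −0.12 ± 0.42.

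No gene rose, and the highest values among those that did not pass include genes of kidney tubules. Among genes with both mutant arrays above both wild-type arrays the lowest unadjusted p were those of Mep1a, a meprin protease subunit, with 5.77 and 5.06 in wild-type and 6.20 and 6.67 in Wv/Wv ovaries (1.02 ± 0.30), Fxyd2, a subunit of the sodium pump of kidney, with 7.42 and 6.15 against 8.08 on both (1.30 ± 0.40), and Kera, the proteoglycan keratocan (1.02 ± 0.32). Next came Slc12a1, the sodium-potassium-chloride transporter of the nephron, at 6.45 and 3.44 against 6.77 and 7.59 (2.23 ± 0.70, unadjusted p = 0.00421 in limma), and Veph1 (0.80 ± 0.25). Wild-type array 2 was the lowest of the 4 for each of these 5 genes. The mesonephros, the embryonic kidney that lies against the gonad, gave the same picture in its list: Cdh16, kidney-specific cadherin, was at 9.73 and 6.48 in wild-type and at 9.96 and 9.56 in Wv/Wv ovaries (1.65 ± 0.77), and Wnt9b, a signal of the nephric duct, at 7.37 and 4.84 against 7.44 and 6.77. The list medians of the 10 genes were 7.31 and 5.93 in wild-type and 7.45 and 6.82 in Wv/Wv ovaries, so wild-type array 2, the array with the higher germ cell values, had the lowest mesonephric ones. With wild-type array 2 left out, both mutant arrays against wild-type array 1 gave a change of −4.65 for Dazl and −2.82 for Pou5f1. The part of mesonephric tissue in the germ cell changes was not tested.

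**Figure D4:**
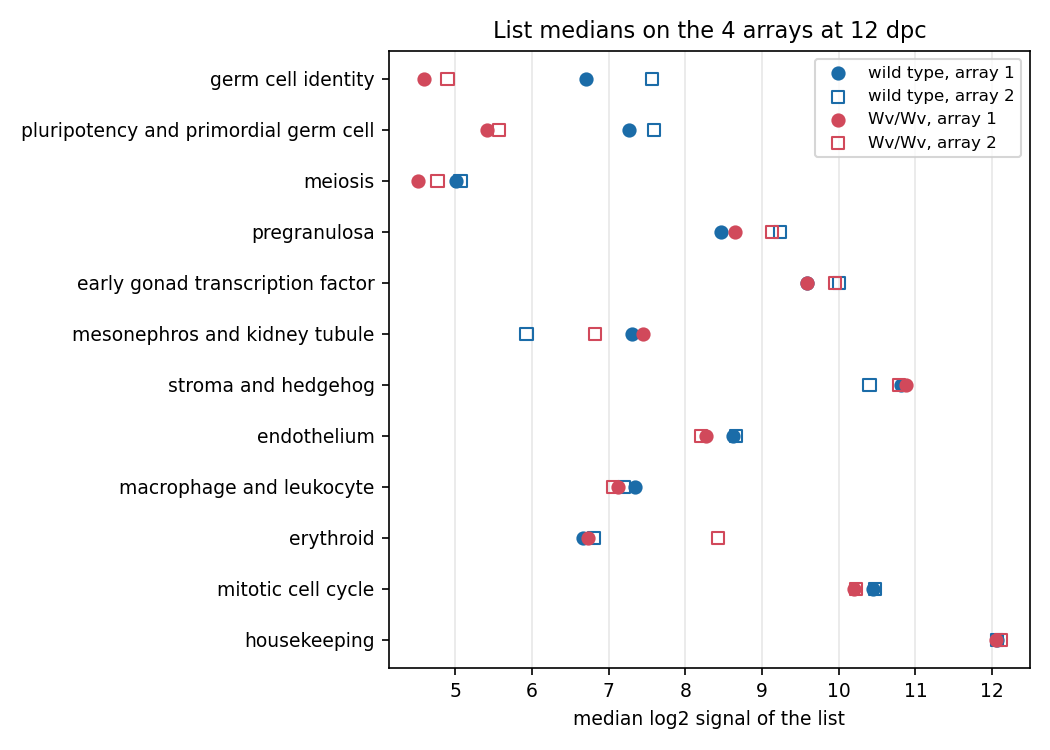
Median log2 signal (horizontal axis) of 12 gene lists on each of the 4 arrays at 12 dpc, blue for wild type and red for Wv/Wv, filled circles for replicate 1 and open squares for replicate 2. The germ cell and pluripotency medians separate the genotypes, the mesonephros median is lowest on wild-type array 2 at 5.93, and the erythroid median is highest on mutant array 2 at 8.43.

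Blood and vessel genes varied between arrays of one genotype. The 13 erythroid genes had medians of 6.67 and 6.81 in wild-type and of 6.73 and 8.43 in Wv/Wv ovaries, with mutant array 2 above the other 3. Alas2, the first enzyme of haem synthesis in red cells, was at 7.28 and 7.57 in wild-type and at 7.46 and 9.67 in Wv/Wv ovaries (1.14 ± 0.71), and Slc4a1, the red cell anion exchanger, at 8.13 and 8.41 against 8.26 and 10.35 (1.04 ± 0.78). Neither passed, and mutant array 1 was within the wild-type range for both. Without mutant array 2 the change of Dazl was −5.06 and that of Pou5f1 was −3.06. The part of blood in the germ cell changes was not tested. In 8 of 13 endothelial genes both mutant arrays were below both wild-type arrays, against 17.5% of all genes, with a median change of −0.23 and none called. Cdh5, which encodes VE-cadherin, was at 7.37 and 7.47 against 7.07 and 6.86 (−0.45 ± 0.23). The 13 macrophage and leukocyte genes had a median of −0.11, the 6 smooth muscle genes one of 0.04, and the 12 stroma and hedgehog genes one of 0.18, with none called. Lum, the matrix proteoglycan lumican, was at 10.64 and 8.58 in wild-type and at 10.69 and 10.52 in Wv/Wv ovaries, again with wild-type array 2 the lowest.

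The 17 genes were then followed in the arrays of the other groups. Those arrays also entered the estimate of spread and the choice of probe set behind the 17 calls, so the follow-up is not fully independent. In ovaries at 14 dpc (3 arrays per genotype) all 17 fell, with a median change of −4.18, where 4.08% of all genes were called lower. In ovaries at 16 dpc (3 arrays per genotype) 10 of the 17 fell and 16 were below 0, with a median of −2.33, where 2.35% of all genes were called lower. In testes at 12 dpc (1 wild-type and 3 Wv/Wv arrays) 4 of the 17 fell, Dppa5a, Rpl39l, Zfp42 and L1td1, and all 17 were below 0, with a median of −3.01, where 0.033% of all genes were called lower. The median at 12 dpc in the ovary was −3.11.

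For Dazl and Ddx4 the values at the later ages were further apart, though not beyond the test of the difference. Dazl in wild-type ovaries averaged 8.56 ± 0.37 (SD, n = 2) at 12 dpc, 12.52 ± 0.25 (SD, n = 3) at 14 dpc and 12.01 ± 0.70 (SD, n = 3) at 16 dpc. In Wv/Wv ovaries it averaged 3.65 ± 0.22 (SD, n = 2), 5.50 ± 1.78 (SD, n = 3) and 5.06 ± 0.67 (SD, n = 3). The change of Dazl was −7.03 ± 0.60 at 14 dpc and −6.96 ± 0.60 at 16 dpc, and that of Ddx4 −6.91 ± 0.70 and −6.34 ± 0.70, but the differences of 2.12 and 2.31 between 12 and 14 dpc did not pass the test. Nanog and L1td1 went the other way. Nanog in wild-type ovaries averaged 6.01 ± 0.28 (SD, n = 2) at 12 dpc, 5.70 ± 0.12 (SD, n = 3) at 14 dpc and 4.04 ± 0.44 (SD, n = 3) at 16 dpc, when it was near the Wv/Wv mean of 3.83 ± 0.16 (SD, n = 3). L1td1 in wild-type ovaries averaged 7.65 ± 0.54 (SD, n = 2), 6.98 ± 0.56 (SD, n = 3) and 5.32 ± 0.72 (SD, n = 3), and the Wv/Wv mean at 16 dpc was 6.03 ± 0.83 (SD, n = 3).

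**Figure D5:**
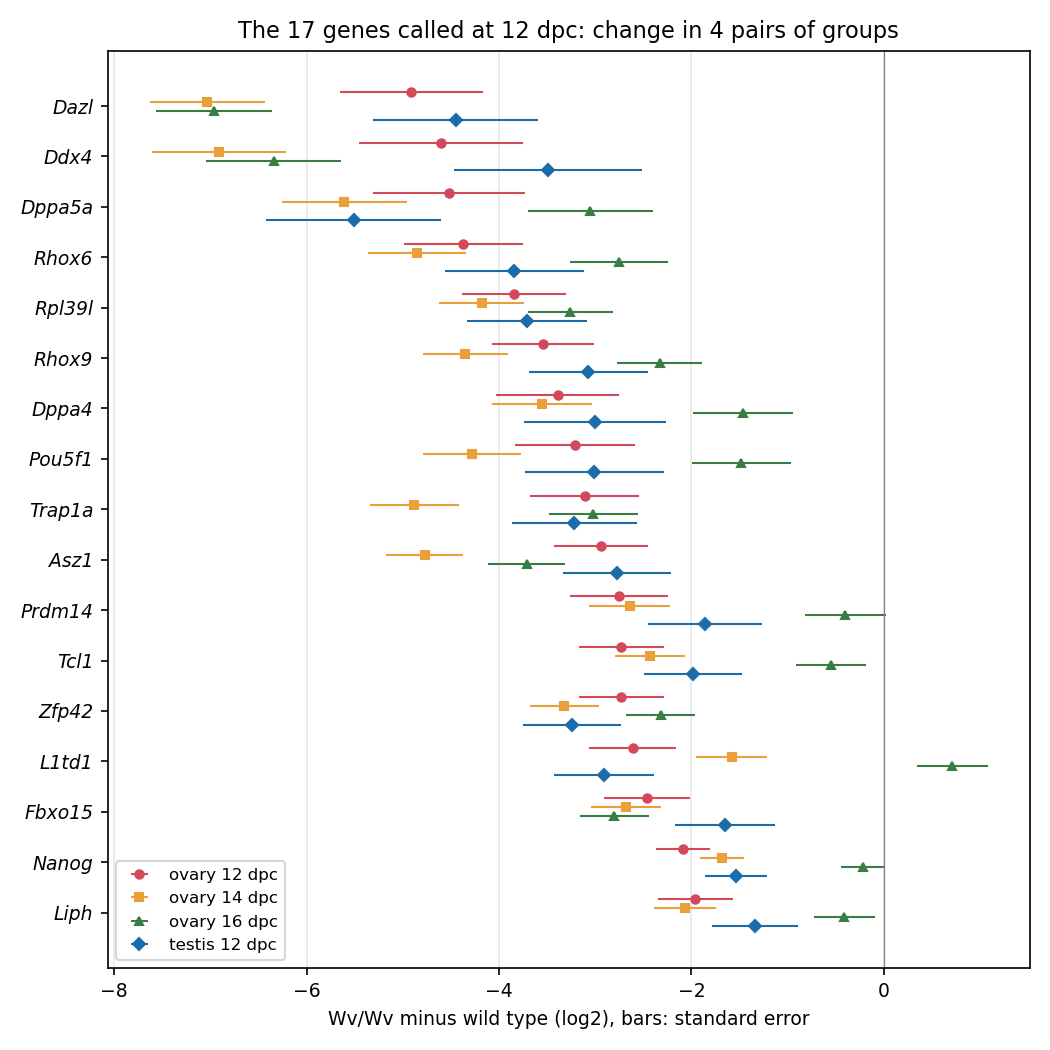
Wv/Wv minus wild type (horizontal axis, log2) with its standard error for the 17 genes called in ovaries at 12 dpc (red circles), and for the same genes in ovaries at 14 dpc (orange squares), ovaries at 16 dpc (green triangles) and testes at 12 dpc (blue diamonds). Dazl and Ddx4 lie near −7 at 14 dpc, and L1td1, at 0.71, is the 1 gene above 0 at 16 dpc.

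The difference of the genotype effect between ages was tested itself, as an interaction in the same limma fit. Between 12 and 14 dpc it passed for 79 genes in which Wv/Wv minus wild type was higher at 12 dpc (0.434%) and for 2 genes in which it was lower (0.011%). Between 12 and 16 dpc it passed for 96 genes (0.528%) and 5 genes (0.0275%). None of the 17 genes passed against 14 dpc, and against 16 dpc only L1td1 (−3.31 ± 0.58, adjusted p = 0.00291) and Nanog (−1.87 ± 0.36, adjusted p = 0.00790) did. For Nanog the adjusted p was 0.106 at most when one of the 4 arrays at 12 dpc was left out, and the call was lost without wild-type array 2 or without mutant array 1. The other genes lower at 12 dpc were Kcnip4, a potassium channel interacting protein, and Bche, butyrylcholinesterase, against both ages, and Akr1c18, a progesterone-metabolising enzyme, against 16 dpc. They changed by 0.07, −0.26 and −0.23 at 12 dpc, and at the later ages their values were higher in Wv/Wv ovaries, by 1.23 to 2.58. These 3 genes were chosen after their values were seen.

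Meiosis genes were among those with the higher value at 12 dpc. They were 14 of these 79 genes and 19 of the 96. Of the 25 on the list 14 passed against 14 dpc and 19 against 16 dpc, all with the lower value at the later age, whereas 0 were called at 12 dpc, 20 at 14 dpc and 22 at 16 dpc. Stra8 changed by 0.12 at 12 dpc and fell by 5.57 at 14 dpc, a difference of 5.69 ± 0.82 (adjusted p = 0.000517). Sycp3 changed by −1.25 at 12 dpc and fell by 6.28 at 14 dpc, a difference of 5.03 ± 0.73 (adjusted p = 0.000546). Smc1b changed by −1.15 at 12 dpc and fell by 6.28 at 16 dpc, a difference of 5.12 ± 0.47 (adjusted p = 4.48e-07). Germ cell identity genes passed in 6 of 13 cases against 14 dpc and 5 of 13 against 16 dpc, and pluripotency genes in 0 of 26 against 14 dpc. All 3 wild-type and 1 of the 3 Wv/Wv ovary arrays at 16 dpc are of the narrower spread. At 14 dpc wild-type ovary array 1 and Wv/Wv ovary arrays 2 and 3 are of the narrower spread. With the spread class as a term, and without the wild-type testis array of lowest spread (1.77, at 16 dpc), the differences were 5.84 for Stra8 and 5.05 for Sycp3 against 14 dpc, and −2.80 for L1td1 and −1.86 for Nanog against 16 dpc. Between ovary and testis at 12 dpc the genotype effect differed for 0 genes (0%) in limma, with 6 higher and 10 lower at an unadjusted p below 0.05, and with 1 wild-type testis array a difference may not be detectable. For Dazl the difference between the sexes was −0.45 ± 1.13 and for Pou5f1 −0.20.

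The promoter table matched 11 of the 17 genes, with 13 windows. Their CpG counts ran from 4 to 38 with a median of 11. In the windows printed above and the other 9, the E-box CACGTG, searched on both strands, occurred in 1 of 13, that of Ddx4, and is held by 7.15% of all windows. The E2F-type motif GGCGGGA, also searched on both strands, occurred in 1 of 13, again Ddx4, where it does not overlap the E-box, and in 11.3% of all windows.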

How the data were processed

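The deposited values are log2 signals of 45101 probe sets on each of 31 arrays. The authors summarised them with RMA, per the submitters' processing notes, and the labelled cRNA was made from 50 ng of total RNA with a 3′ IVT kit, per the labels' protocols. Neither the version of RMA nor the set of arrays it normalised is given in the sources used here. RMA equalises overall signal, so a shift of all genes is not visible. There is no read depth to give, and precision depends on how many arrays a group has.

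Gene names came from the annotation of the platform, which gives 1 symbol to 34958 probe sets, several to 932 and does not list 9211. Each of 18194 genes was represented by its brightest probe set, by the mean of all arrays. Samples were grouped by sex, age and genotype in the labels. limma 3.58.1 in R 4.3.3 (lmFit, eBayes) fitted 12 group means over 31 arrays with 19 residual degrees of freedom. The single wild-type testis array at 12 dpc was taken to vary like the others. On simulated data the fit recovered 18% of genes changed by 1 and 69% of those changed by 2 on the log2 scale at 12 dpc, with 4 false calls. The simulated noise was independent between arrays and of equal size on all arrays for a gene. The real arrays differ in spread, so these figures may not carry over to them. Genes were named by rule: all called, the 5 of lowest p among those higher without overlap, up to 4 of largest change per list and fixed markers. Further list members are described where stated, chosen after their values were seen. The 27 lists and the comparison were chosen with earlier results of these data known. Lists are described by counts and medians, with no set test. Alternatives were array weights, a low-signal filter, other probe set rules, normalisations, subsets of arrays, the spread class (SD over probe sets above or below 2.25) as a term, a replicate block and leaving out each array.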

Additional observations from a re-analysis of the deposited data

Results flagged for a closer look

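The genotype effect in ovaries differed between ages for the genes below, by the interaction test in limma. Against 14 dpc the difference, Wv/Wv minus wild type at 12 dpc less the same at 14 dpc, was 5.69 for Stra8, 5.03 for Sycp3, 4.80 for Mael, 3.67 for Smc1b, 3.25 for Syce1, 2.64 for Sohlh2, 2.24 for Taf4b, 4.30 for Rhag, a red cell membrane protein, 3.72 for Slc25a31, 3.93 for Stk31, −2.50 for Kcnip4 and −1.49 for Bche. Against 16 dpc it was 6.32 for Sycp3, 5.12 for Smc1b, 4.85 for Mael, 4.38 for Stra8, 3.57 for Syce1, 3.07 for Stag3, 2.39 for Taf4b, 4.99 for Rhag, 6.40 for Hemgn, an erythroid nuclear protein, −3.31 for L1td1, −1.87 for Nanog, 3.90 for Slc25a31, −2.36 for Kcnip4, −1.57 for Bche and −1.46 for Akr1c18. Slc25a31, Stk31, Kcnip4, Bche and Akr1c18 were chosen after their values were seen. Stra8, Sycp3, Mael, Smc1b and Syce1 passed against both ages whichever of the 4 arrays at 12 dpc was left out, and so did L1td1 against 16 dpc, where its adjusted p was 0.0478 at most. In a fit to the ovary arrays alone L1td1 and Stra8 against 16 dpc were no longer called.

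The calls of the others depended on single arrays. Rhag against 14 dpc was lost without either wild-type array or without mutant array 2 (adjusted p up to 0.656), and against 16 dpc Rhag and Hemgn were lost without wild-type array 1 or mutant array 2 (up to 0.183 and 0.327). On mutant array 2 Rhag was at 6.91 and Hemgn at 9.27, above 4.81 and 6.73 on mutant array 1. Sohlh2 was lost without wild-type array 1 or either mutant array (up to 0.213), and Taf4b against 14 dpc without either wild-type array or mutant array 2 (up to 0.253). Taf4b against 16 dpc was lost without wild-type array 1 or mutant array 2 (up to 0.119), Stag3 without either wild-type array or mutant array 1 (up to 0.341), and Nanog without wild-type array 2 or mutant array 1 (up to 0.106). Stk31 and Akr1c18 were lost without any one of the 4 arrays (up to 0.275 and 0.222). Slc25a31 was lost against both ages without wild-type array 1 or either mutant array (up to 0.219). Kcnip4 was lost against 14 dpc without wild-type array 2 (0.0705) and against 16 dpc without that array or mutant array 1 (up to 0.101). Bche was lost against 14 dpc without wild-type array 1 or mutant array 2 (up to 0.124) and against 16 dpc without wild-type array 1 (0.0568).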

How the results depend on the processing

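The count of 17 genes at 12 dpc became 71 with array weights (6 higher, with an incomplete convergence of the weights), 11 without genes of low signal (of 12777 tested), 2 in a fit to the 4 arrays alone, 4 in a fit to the ovary arrays, 48 on the wide-spread arrays and 34 with the spread class as a term and wild-type testis array 1 of 16 dpc left out, and 0 to 20 when one array was left out. With all probe sets, their means, other normalisations, another variance prior or a 2-fold minimum it lay between 13 and 20. With the replicate block it was 9, 7 of them among the 17, and the differences between ages then passed for 38 genes against 14 dpc and 60 against 16 dpc. Of the genotype differences between ages, the block ended the calls of Syce1 against 14 dpc (adjusted p = 0.0992) and L1td1 against 16 dpc (0.112), and of Sohlh2, Taf4b, Stag3, Slc25a31, Stk31, Kcnip4, Bche and Akr1c18. The labels do not say what a number shares, and same-numbered deviations correlated at 0.461 in ovaries at 12 dpc, at 0.602 to 0.72 in testes at 16 dpc and at −0.818 to −0.534 in ovaries at 14 dpc, so a pairing is not established. No value of the 17 genes turned its sign among 283 values over 17 settings (−5.17 to −1.09), and 106 were no longer called. Many of these settings leave the change of a gene as it is and alter only its standard error. Leaving out an array could not turn the sign of genes whose arrays do not overlap. The unchanged sign is therefore little further support. The difference against 14 dpc (81 genes) passed for 332 on the wide-spread arrays, 498 with the spread class and that array left out and 34 to 66 with an array left out. Against 16 dpc (101 genes) it passed for 488 with the spread class and that array left out and 64 to 80 with an array left out, and a fit to the wide-spread arrays was not possible because no wild-type array is left. The ovary against testis difference passed for 2 genes on the wide-spread arrays, 1 with the spread class, and 0 with the block or an array left out. Taken apart, after seeing the data, the class term with all arrays gave 30, 209, 278 and 1 genes for these 4 counts in turn, and leaving out that testis array alone gave 27, 127, 132 and 1. As further settings, low-signal genes left out gave 23 and 31 against 14 and 16 dpc, and array weights gave 1423 and 10032. Of the 17 genes, 0 to 17 were called in testes at 12 dpc, 14 of them on the wide-spread arrays, in settings added after seeing the data. Of 216 list medians 36 moved by more than the spread between replicates. The causes were not tested.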

Other observations

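Other cell lineages that can need KIT or lie near the gonad gave these values at 12 dpc. Of 14 mast cell and melanocyte genes none was called and the median change was 0.07. Cpa3, the carboxypeptidase of mast cell granules, was at 5.22 and 5.49 in wild-type and at 4.35 and 4.32 in Wv/Wv ovaries (−1.02 ± 0.59), whereas Hdc, histidine decarboxylase of the same cells, was at 7.19 and 6.59 against 7.43 and 7.31 (0.48 ± 0.37), so the mast cell genes did not move one way. Dct, the melanocyte enzyme dopachrome tautomerase, was at 6.63 and 8.14 against 7.21 and 8.09 and overlapped between genotypes.

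Of 8 adrenal genes none was called (median −0.21). Th, tyrosine hydroxylase of catecholamine cells, was at 7.21 and 5.98 in wild-type and at 5.02 and 6.39 in Wv/Wv ovaries (−0.89 ± 0.57), and Chga, chromogranin A of secretory granules, at 7.86 and 6.32 against 5.94 and 6.76 (−0.74 ± 0.44). The genotypes overlapped for both, with wild-type array 1 the highest. Of 5 neuron and glia genes none was called (median −0.28). Nefl, a neurofilament gene, was at 9.09 and 8.13 against 8.08 and 7.64. Both measured genes of placenta and decidua were between 3.57 and 4.01 on all 4 arrays, and none of the 4 sex chromosome genes was called (median 0.02).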
